A study of Mus musculus with 4 samples.

Results

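The genes described here encode the subunits of the proteasome, the barrel-shaped protease that degrades proteins tagged with ubiquitin. They were taken by name from the platform's probe annotation: every gene whose symbol starts with Psma, Psmb, Psmc, Psmd or Psme followed by a digit, with pseudogenes left out. The rule found 44 of the 18193 genes that a probe set named alone, held by 91 of 45037 probe sets, and the probe set with the highest mean over the 4 arrays stood for its gene. The samples were brains (the sample descriptions name the cerebrum) of 8 to 9-week-old male C57BL/6 mice, 2 wildtype (+/+) and 2 BCAS1 KO (-/-), all from heterozygous matings and with 1 array per mouse. Of the knockout, the labels give the genotype and breeding but not how the allele was disrupted, and neither group had a named treatment. Because whole tissue was extracted, fewer cells of a type and less RNA per cell cannot be told apart.

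The core particle is a stack of rings, the outer built from alpha subunits that gate the entrance and the inner from beta subunits, of which Psmb5, Psmb6 and Psmb7 carry the protein-cutting sites. In immune cells and after interferon, Psmb8, Psmb9 and Psmb10 can replace these catalytic subunits and form the immunoproteasome, which favours peptides for class I antigen presentation. A regulatory cap sits on the core, with Psmc ATPases that unfold the substrate and Psmd subunits that bind and remove ubiquitin. The Psme proteins are alternative activators. In the brain the proteasome is known for protein turnover at synapses and in long-lived cells such as neurons and oligodendrocytes, and Bcas1 is a gene of myelinating oligodendrocytes.

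Promoters are shown first because 1 of the 8 motifs searched differed more than the others between core and cap subunits. The choice of genes did not use this property, and no test was run for it. RefSeq's table (GRCm38.p6) held 37 of the 44 genes, and the 250 bases before each start were searched on both strands for 8 motifs. The core of the Ets factor site, CCGGAA, was present in 16 of the 37 promoters (43.2%). It was in 10 of 14 cap subunit promoters (71.4%), in 2 of 11 core subunit promoters (18.2%) and in 0 of 3 of the immunoproteasome. Outside these classes it was in Psmd10, Psme3, Psme4 and Psmc3ip, but not in Psmd5, Psmd9, Psmb11, Psme1 or Psme3ip1. The same motif was in 16.9% of 17491 protein-coding genes and 13.6% of all 27025 genes in the table. A match is a description of letters and not a bound site. Below are 3 cap subunits with the motif in capitals, on either strand. In Psmd4 a pair of matches overlaps. The cap subunits are followed by Psmb9 and Psmb8, with a GC box (GGGCGG) and a STAT-type motif (TTCNNNGAA) in capitals, respectively.
Psmc1, chr12:100109952-100110201, plus strand: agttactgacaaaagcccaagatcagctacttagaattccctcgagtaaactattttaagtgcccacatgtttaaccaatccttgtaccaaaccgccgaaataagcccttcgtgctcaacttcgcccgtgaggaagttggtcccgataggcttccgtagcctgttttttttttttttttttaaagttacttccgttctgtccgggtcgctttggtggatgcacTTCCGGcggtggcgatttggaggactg
Psmd12, chr11:107479278-107479527, plus strand: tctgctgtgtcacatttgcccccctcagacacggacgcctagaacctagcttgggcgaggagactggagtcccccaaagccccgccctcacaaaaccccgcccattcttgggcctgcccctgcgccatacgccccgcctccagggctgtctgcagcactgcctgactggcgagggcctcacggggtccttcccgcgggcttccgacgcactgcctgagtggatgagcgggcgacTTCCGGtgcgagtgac
Psmd4, chr3:95042615-95042864, minus strand: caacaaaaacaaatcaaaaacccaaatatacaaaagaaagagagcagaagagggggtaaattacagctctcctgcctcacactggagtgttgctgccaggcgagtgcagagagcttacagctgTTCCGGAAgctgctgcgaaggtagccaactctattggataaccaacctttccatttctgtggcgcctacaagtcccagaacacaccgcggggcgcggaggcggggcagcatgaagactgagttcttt
Psmb9, chr17:34187331-34187580, minus strand: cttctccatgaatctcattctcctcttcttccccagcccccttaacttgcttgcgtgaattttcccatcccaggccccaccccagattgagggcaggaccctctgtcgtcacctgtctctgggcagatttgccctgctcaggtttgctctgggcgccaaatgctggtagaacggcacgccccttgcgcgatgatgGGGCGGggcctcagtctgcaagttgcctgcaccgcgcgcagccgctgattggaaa
Psmb8, chr17:34197945-34198194, plus strand: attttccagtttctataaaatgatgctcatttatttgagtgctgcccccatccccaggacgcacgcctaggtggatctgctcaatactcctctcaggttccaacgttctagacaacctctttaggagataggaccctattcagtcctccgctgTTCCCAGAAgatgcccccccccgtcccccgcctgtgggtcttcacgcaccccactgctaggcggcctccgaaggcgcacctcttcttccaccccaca

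The other motifs differed less between core and cap subunits, but not all were even. The CCAAT box went the other way from the Ets core, in 6 of 11 core and 4 of 14 cap promoters (54.5% and 28.6%). For the GC box these were 5 of 11 and 9 of 14 (45.5% and 64.3%). Such gaps between few promoters were not tested. The GC box was in 21 of 37 promoters (56.8%, against 45.8% of protein-coding genes) and the CCAAT box in 16 (43.2%, against 39.5%). The loose form of the antioxidant response element, TGACNNNGC, which Nfe2l1 can bind when it drives subunit genes, was in 5 (13.5%, against 12%), and the full form TGACTCAGC in 0 (0.423% of protein-coding genes). The interferon response element, GAAA repeated after any 2 bases, was in 3 (8.11%, against 3.48%), none of them an immunoproteasome gene. TTCNNNGAA was in Psmb8 alone of the 37 (7.65% of protein-coding genes), and the NF-kappaB consensus in 0 (0.166%). The median GC content was 57.6% in these promoters and 55.6% in those of protein-coding genes. In gene order, Tap1 lies between Psmb9 and Psmb8 on chromosome 17 and Tap2 follows Psmb8. Psmb9 and Tap1, a transporter that carries proteasome-made peptides into the endoplasmic reticulum, run in opposite directions from starts 226 bases apart, so that the Psmb9 sequence above holds the start of Tap1.

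Levels were deposited as log2 values made by RMA, and differences are knockout minus wild type on that log2 scale. Array medians lay between 6.49 and 6.51, and pairs of arrays correlated at 0.996 to 0.998 across probe sets. Actin control probe sets at the 3' end exceeded those at the 5' end by 1.09 and 1.12 in wild type against 1.14 and 1.15 in knockout mice. The brightest Bcas1 probe set measured 12.17 and 12.21 in wild type against 11.05 and 10.75 in knockout mice, with a difference of -1.29 and an adjusted p of 0.742 in limma. The other 2 Bcas1 probe sets, both below the median level, went the other way, at 0.765 and 0.64 (adjusted p 1 in limma). In a list of 6 nasal tissue markers the summed signal, relative to its mean over the arrays, was 0.44 and 0.471 in wild type against 0.425 and 2.66 in knockout mice, so that the second knockout array stands apart. Of 45037 probe sets, 2 passed the adjusted threshold of 0.05 in limma (0.00444%; by brightest probe set, 0.0055% of genes), and 1542 had an unadjusted p under it (3.42%).

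No proteasome gene passed the test, and the measured differences between knockout and wild type were small. For each of the 44 the adjusted p in limma was 1, and 0 had an unadjusted p under 0.05, against 2.75% of all genes. The differences ran from -0.17 to 0.21 with a median of 0.0075, beside a median of 0.005 over all genes. Positive differences numbered 24, negative 19, and 1 was 0; over all genes 51.7% were positive. Neither the sign of the median nor the majority was stable: without the second knockout array the median was -0.01 with 18 positive, without the first wild-type array -0.0025 with 19, and with averaged probe sets -0.00375 with 20. A p that misses the threshold does not show equal levels, so the intervals matter more. Every one of the 44 limma 95% intervals lay within 1.5-fold in either direction, as did 95.8% of those of all genes. Above the median level, where 42 of the 44 lay, 11491 of 11638 genes had such an interval. With every probe set of the 44 genes counted, 83 of 91 had one. Among the 44 brightest probe sets, the lowest end of an interval was a 1.38-fold lower level (Psmb11). The highest end was a 1.36-fold higher level (Psmd9). Psmc4 had the widest interval of the 44, from -0.362 to 0.382.

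**Figure D1:**
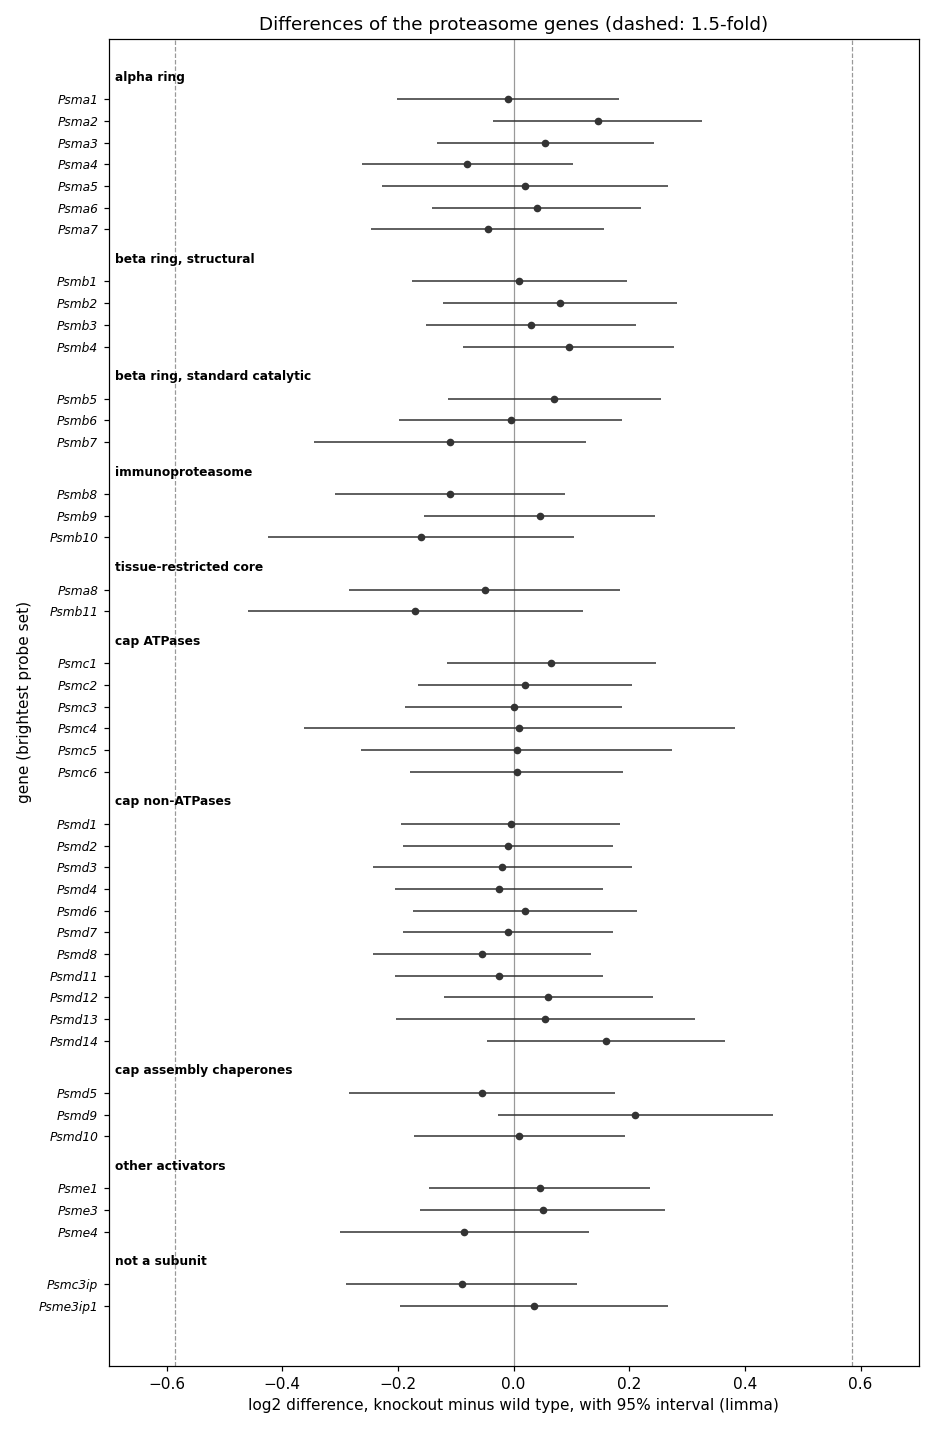
Difference of each proteasome gene, knockout minus wild type on the log2 scale (horizontal axis), with the limma 95% interval from 2 mice per group; genes are grouped by class and dashed lines mark 1.5-fold. All 44 intervals lie between the dashed lines and all include 0.

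In 18 of the 44 genes (40.9%) the genotypes did not overlap, against 28.3% of all genes and 28.6% of genes above the median level. Knockout was higher in 10 of them and lower in 8; over all genes the shares were 15.5% and 12.8%, and above the median level 14.8% and 13.7%. Such a gap can be small: Psmd11 measured 11.33 and 11.31 in wild type against 11.30 and 11.29 in knockout mice. With the mean of all probe sets of a gene in place of the brightest, the number was 9 (20.5%), against 28.6% of all genes on that scale, so that the share of the 44 was above that of all genes by brightest probe set and below it by the mean. With 2 mice against 2, an exact permutation test cannot give a two-sided p below 0.333.

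Spread between mice was small for the brightest probe sets of these genes. The median SD within a group, pooled over both genotypes, was 0.042 for the 44. It was 0.0757 for all genes and 0.0618 for genes above the median level, where 42 of the 44 lay. For the core subunits it was 0.0318 and for the cap subunits 0.0316. The other probe sets of the same genes did not share the small spread. Their median was 0.0651 for the 24 above the median level and 0.0955 for the 23 at or below it. These comparisons were not matched for level. The wild-type arrays were closer to each other than the knockout arrays were, with median distances of 0.03 and 0.07. The knockout distance was the larger in 31 of the 44 (70.5%), as it was in 59.7% of all genes.

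**Figure D2:**
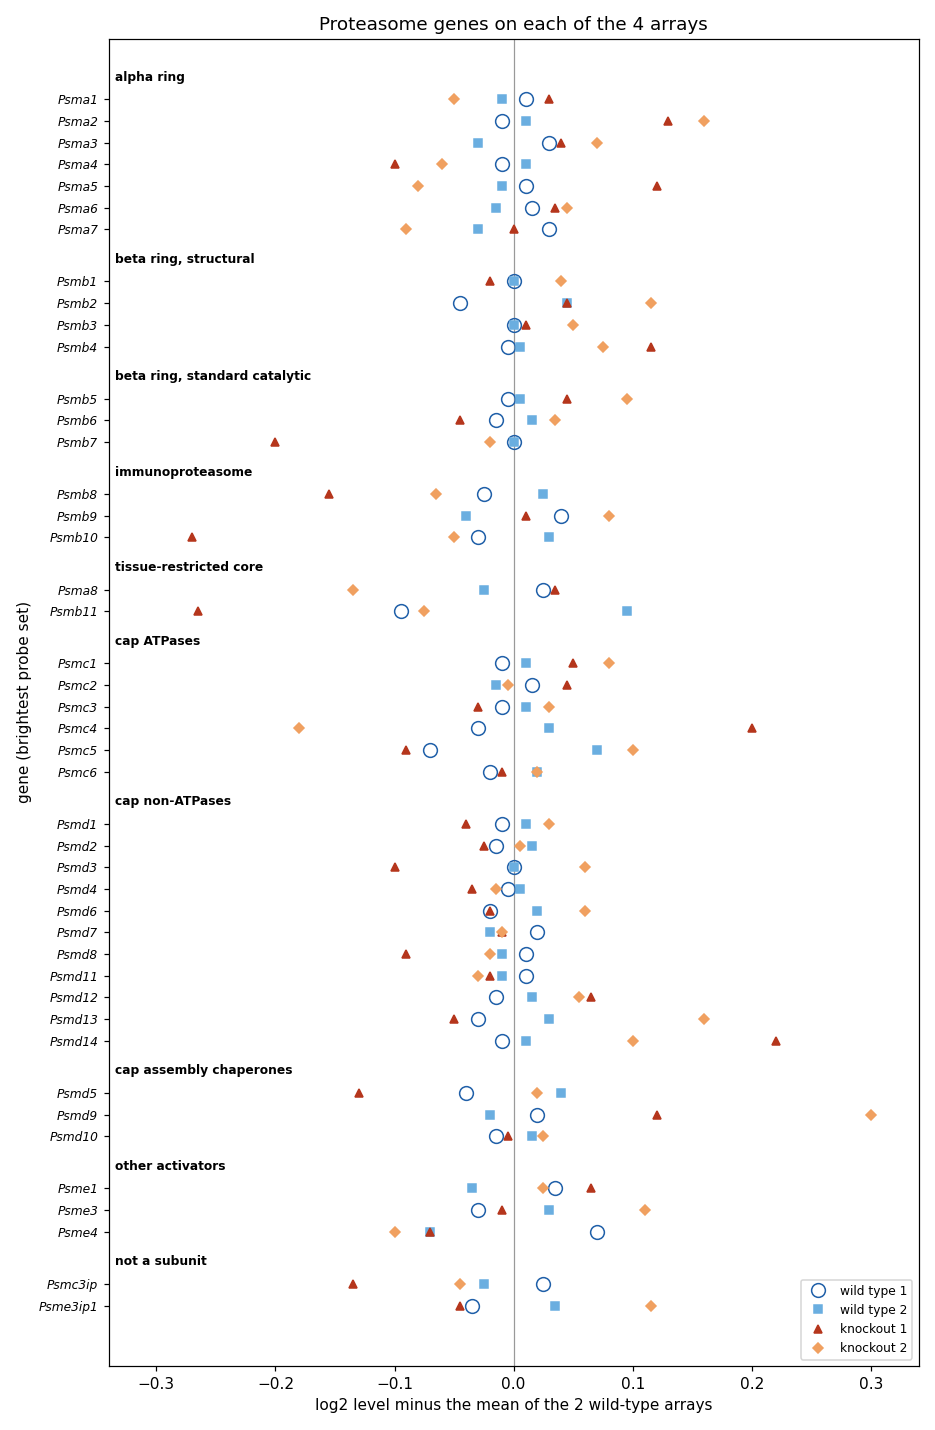
Log2 level of each proteasome gene on each array minus the mean of the 2 wild-type arrays (horizontal axis), by class; open circles and filled squares are wild type, triangles and diamonds knockout. Wild-type points sit near 0, and the knockout points are farther apart, at most 0.38 in Psmc4.

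Alpha ring genes showed differences in both directions around a median of 0.02 over 7 genes. Psma2 measured 11.43 and 11.45 in wild type against 11.57 and 11.60 in knockout mice. Both knockout arrays were above both wild-type arrays, by a difference of 0.145 (SE 0.0693, interval -0.0362 to 0.326), with an unadjusted p of 0.0938 and an adjusted p of 1 in limma. Psma4, another alpha subunit, lay the other way: it measured 11.40 and 11.42 in wild type against 11.31 and 11.35 in knockout mice, a difference of -0.08 (SE 0.0699). Psma3 and Psma6 had knockout values above wild type by 0.055 and 0.04, while Psma1, Psma5 and Psma7 overlapped at -0.01, 0.02 and -0.045.

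The 4 non-catalytic beta genes all had positive differences, from 0.01 (Psmb1) to 0.095 (Psmb4), with a median of 0.055. Psmb4, which closes the beta ring during assembly, measured 11.99 and 12 in wild type against 12.11 and 12.07 in knockout mice (SE 0.0696, adjusted p 1 in limma). Its genotypes did not overlap, and those of Psmb3 were apart by a single rounding step, at 10.82 in both wild-type mice against 10.83 and 10.87. Psmb2 measured 10.29 and 10.38 in wild type against 10.38 and 10.45 in knockout mice, so that its groups touched.

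Catalytic subunits of the standard core did not share a direction. Psmb5, which carries the chymotrypsin-like activity, measured 11.49 and 11.50 in wild type against 11.54 and 11.59 in knockout mice, a difference of 0.07 (SE 0.0703, interval -0.114 to 0.254). Psmb6, the caspase-like subunit, measured 11.12 and 11.15 against 11.09 and 11.17, with the knockout values on either side of wild type and a difference of -0.005 that turned to 0.005 when the arrays were centred on their medians. Psmb7, the trypsin-like subunit, measured 9.22 in both wild-type mice against 9.02 and 9.20 in knockout mice. Its difference of -0.11 (SE 0.0899) came mostly from the first knockout array, and it was -0.02 without that array.

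Immunoproteasome genes were lower in the knockout for Psmb8 and Psmb10 and not for Psmb9, and 0 of the 3 passed the test. Psmb10 measured 9.64 and 9.70 in wild type against 9.40 and 9.62 in knockout mice, so the groups did not overlap, but the second knockout array was within 0.02 of a wild-type mouse. The difference was -0.16 (SE 0.101, interval -0.424 to 0.104; unadjusted p 0.177, adjusted p 1 in limma), and it was -0.05 without the first knockout array. Psmb8 measured 6.76 and 6.81 in wild type against 6.63 and 6.72 in knockout mice, a difference of -0.11 (SE 0.0761) that was -0.065 without the first knockout array. Psmb9 measured 6.57 and 6.49 against 6.54 and 6.61, overlapping, with a difference of 0.045 (SE 0.0766) that ranged from 0.005 to 0.085 when 1 array was left out. Psmb8 and Psmb9 lay near the median probe set of 6.49. The median over the 3 genes was -0.11, beside 0.025 for 14 core subunits and 0.005 for 17 cap subunits. With all probe sets of a gene averaged it was -0.015, since a second, dim Psmb8 probe set differed by 0.08. The difference between the classes was not tested, and a median of 3 genes from 2 mice per group rests on few values.

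**Figure D3:**
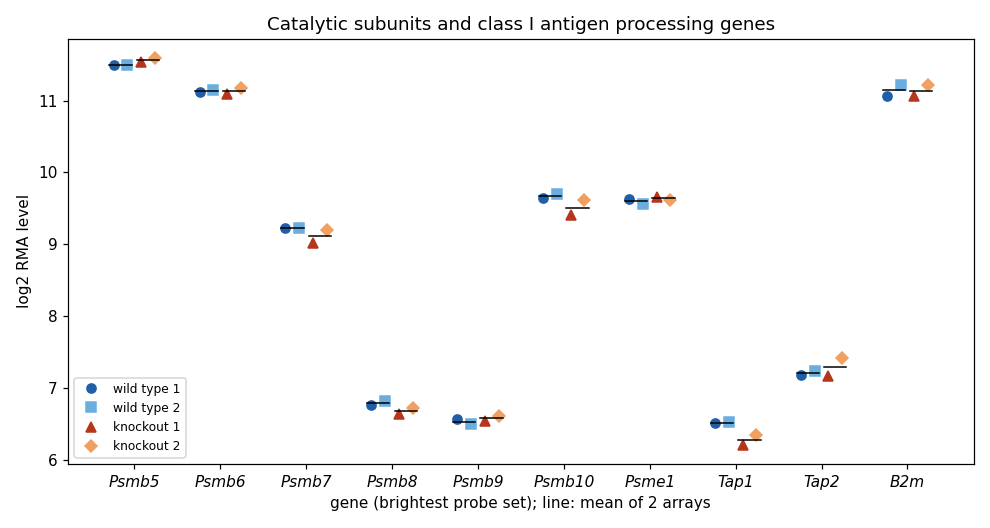
Log2 RMA level (vertical axis) of the standard catalytic subunits, the immunoproteasome subunits, Psme1 and 3 class I antigen processing genes on each array, with lines at the mean of 2 arrays. Heights of different genes come from different probes and are not comparable; within a gene, Psmb7, Psmb8, Psmb10 and Tap1 have both knockout points below both wild-type points, and Psmb5 has both above.

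The wider interferon and class I list also had 0 of 12 measured genes past the adjusted threshold, with 5 positive and 7 negative differences and a median of -0.0125. Tap1 shares its promoter region with Psmb9, and its mean level of 6.40 was below that of the median probe set. It measured 6.51 and 6.52 in wild type against 6.21 and 6.35 in knockout mice. Its difference was -0.235 (SE 0.0821; unadjusted p 0.0377, adjusted p 1 in limma), while Psmb9 across the shared region was at 0.045. Erap1, which trims peptides for class I molecules, measured 5.91 and 5.90 against 5.68 and 5.71, a difference of -0.21 (SE 0.0691; unadjusted p 0.0309, adjusted p 1 in limma) at a dim level. Tap2 was at 0.085 and B2m, the light chain of class I molecules, at -0.005. Irf1 and Irf9, transcription factors of the interferon response, were at 0.13 and -0.135.

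Among marker lists of cells known to hold immunoproteasomes, 0 of 7 microglia genes passed, with a median of -0.045. Their relative summed signal was 1.01 in both wild-type arrays and 0.969 and 1.02 in the knockout. The first knockout array was the lowest, as it was for Psmb8 and Psmb10. For Psmb9 the lowest value was 6.49, in the second wild-type array. A low first knockout array was not particular to microglia. It was also the lowest for the lymphocyte markers, for the interferon and class I list (0.972) and for Psmb7, but not for the neutrophil markers. The 6 neutrophil markers summed to 0.804 and 0.769 in wild type against 1.03 and 1.39 in knockout mice, and the 4 measured lymphocyte markers to 1.02 and 0.979 against 0.955 and 1.04. Of the microglia, neutrophil and lymphocyte markers, 7, 1 and 2 genes were above the median level, in that order. Their part in the immunoproteasome values was not tested.

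Genes of the cap ATPases were the most even class by range, with differences from 0 (Psmc3) to 0.065 (Psmc1) over 6 genes. Psmc1 measured 10.82 and 10.84 in wild type against 10.88 and 10.91 in knockout mice, a difference of 0.065 (SE 0.0693). Psmc4 had a difference of 0.01 but the widest spread of the 44 genes: 11.10 and 11.16 in wild type against 11.33 and 10.95 in the knockout, with the knockout mice on opposite sides. Psmc2, Psmc5 and Psmc6 were at 0.02, 0.005 and 0.005, with overlapping groups.

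Non-ATPase cap genes numbered 11, with 4 positive and 7 negative differences and a median of -0.01. Psmd14, the enzyme that strips ubiquitin chains from the substrate at the cap, measured 11.87 and 11.89 in wild type against 12.10 and 11.98 in knockout mice. Both knockout arrays were the higher, with a difference of 0.16 (SE 0.0789, interval -0.0464 to 0.366; unadjusted p 0.102, adjusted p 1 in limma). Leaving out the second knockout array gave 0.22, and leaving out the first gave 0.10. Psmd12 was apart in the same direction by 0.06, and Psmd8 in the other, at 10.72 and 10.70 against 10.62 and 10.69, a difference of -0.055 (SE 0.0723). Psmd4, a ubiquitin receptor of the cap, was at -0.025, and the scaffold subunits Psmd1 and Psmd2 were at -0.005 and -0.01. Psmd3, Psmd6, Psmd7 and Psmd13 overlapped, at -0.02, 0.02, -0.01 and 0.055.

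The chaperones that help assemble the cap are named with it but leave before it works. Psmd9, one of them, had the largest positive difference of the 44 genes: it measured 8.01 and 7.97 in wild type against 8.11 and 8.29 in knockout mice, 0.21 higher (SE 0.0909, interval -0.0276 to 0.448; unadjusted p 0.0717, adjusted p 1 in limma). A second Psmd9 probe set went the same way, at 6.49 and 6.50 against 6.72 and 6.60, a difference of 0.165. A dim one of the same gene went the other way, at 5.10 and 5.07 against 4.83 and 4.45, a difference of -0.445 (SE 0.141; adjusted p 1 in limma), and the mean of all its probe sets gave -0.023. Without the second knockout array the brightest Psmd9 probe set was at 0.12. Psmd5 and Psmd10 were at -0.055 and 0.01, with overlapping groups.

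Of the alternative activators, Psme1, induced by interferon, measured 9.63 and 9.56 in wild type against 9.66 and 9.62 in knockout mice, a difference of 0.045 (SE 0.0732). Its partner Psme2 had no probe set of its own: a probe set shared with Psme2b, outside the rule, measured 9.01 and 9.08 against 9.06 and 9.12, also a difference of 0.045. Psme3, the nuclear activator, was at 0.05 and Psme4, another nuclear activator, at -0.085, and all these groups overlapped. Psma8, a core subunit of the testis, measured 4.61 and 4.56 against 4.62 and 4.45, and Psmb11, of the thymus, 4.12 and 4.31 against 3.95 and 4.14. These 2 genes were below the median level and the other 42 above it; no detection call was used here to separate them from background. The rule also took Psmc3ip and Psme3ip1, which are named after their binding partners and are not subunits. Psmc3ip, known from meiotic recombination, measured 6.80 and 6.75 against 6.64 and 6.73, a difference of -0.09, with a dimmer probe set at 0.155. Psme3ip1 was at 0.035.

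More than 1 probe set was available for 23 of the genes. The 24 further probe sets above the median level had a median difference of 0.0325, with 16 positive. The 23 at or below it ranged from -0.445 to 0.22, with a median of -0.04 and 13 negative, and held the 3 of the 91 with an unadjusted p under 0.05 (3.42% of all probe sets had one), all lower in the knockout: the dim Psmd9 one and those of Psma5 (-0.24) and Psmd13 (-0.265). Each of the 91 had an adjusted p of 1 in limma.

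Several probe sets were high in the first knockout array and low in the second, while another probe set of the same gene was not. The Psmc4 probe set above was 0.38 higher in the first, and the second Psmc4 probe set, at 10.17 and 10.25 in wild type, measured 10.18 and 10.27 in the knockout. For Psmd6 the brighter probe set measured 11.34 and 11.42 in the knockout and the other 11.12 and 10.75. For Psmb4 the values were 12.11 and 12.07 in the brighter and 11.69 and 11.31 in the other. Psmc6 had knockout values of 10.73 and 10.76 in its brightest probe set but of 10.79 and 10.42, and 8.46 and 7.95, in the others. The part that transcript ends or hybridisation may play in this disagreement was not tested.

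**Figure D4:**
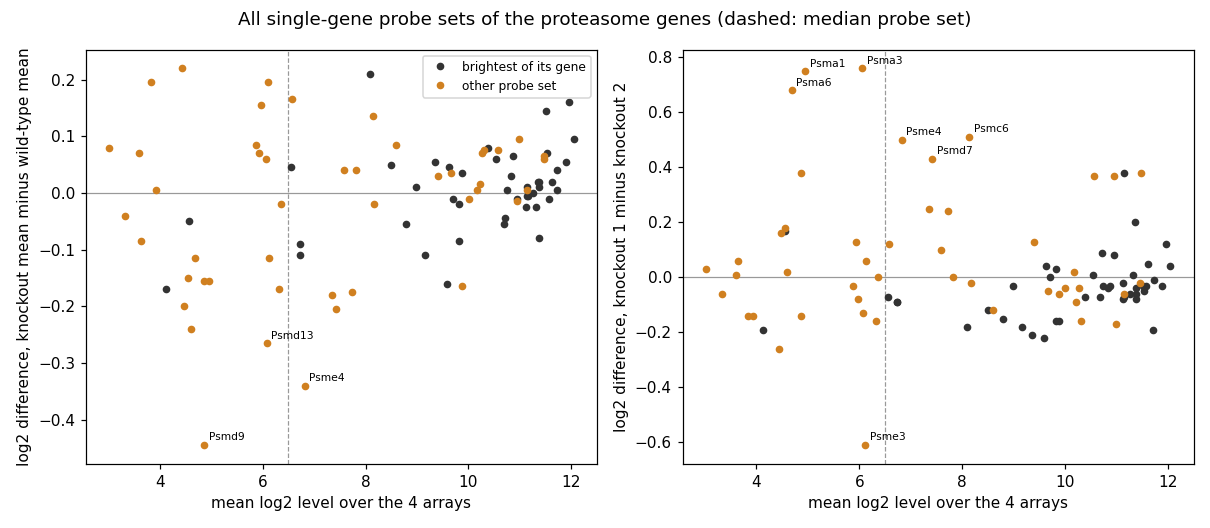
All 91 probe sets of the proteasome genes, by mean log2 level (horizontal axes); the left panel shows the knockout minus wild-type difference and the right panel the first minus the second knockout array, both on the log2 scale. Black points are the brightest probe set of each gene, orange the others, and the dashed line is the median of all probe sets at 6.49; the Psmd9 probe set at -0.445 is the lowest on the left.

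Genes that work with the proteasome were described by lists. Of 12 measured genes for core assembly and associated proteins, 0 passed, and the differences ran from -0.085 (Psmg2, a core assembly chaperone) to 0.05 (Psmf1), with a median of -0.0125. Pomp, the maturation protein of the core, measured 11.68 and 11.72 in wild type against 11.59 and 11.69 in knockout mice, a difference of -0.06 (SE 0.0768). Another list was made for the route by which Nfe2l1 raises subunit transcription when proteasome activity falls. Besides genes of that route it held Nfe2l2 and stress or antioxidant genes such as Hmox1 and Txnrd1, and its member Ddi2 had no value. Of the 10 measured genes in it, 0 passed and the median was -0.0025. Nfe2l1 itself measured 10.92 and 10.97 against 10.87 and 10.98, a difference of -0.02. Hmox1, a stress-induced heme oxygenase, was at 0.25 (SE 0.111; unadjusted p 0.0775, adjusted p 1 in limma) from a dim level, and Txnrd1, an antioxidant enzyme, at -0.14 (SE 0.0689). Of 8 measured genes for ubiquitin handling and shuttling, 0 passed, with a median of 0.0425. Bag6, a chaperone for misplaced membrane proteins, was at 0.10 and Ufd1, a cofactor of the Vcp segregase, at 0.07. Ubqln4 and Rad23b, which carry ubiquitinated proteins to the proteasome, were at 0.065 and -0.08.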

How the data were processed

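RNA of 4 mouse brains was labelled from 100 ng of total RNA with a 3' IVT kit and hybridised to Affymetrix arrays, per the labels' protocols. The deposited values are log2 levels per probe set, which the authors made with RMA, per the submitters' processing notes, and they carry 2 decimals (version and settings not given in the sources used here). Control probe sets (64 of 45101) were left out. In the platform annotation 34945 probe sets named 1 gene, 932 several and 9160 none. Knockout and wild type were compared in limma 3.58.1 (R 4.3.3; lmFit and eBayes, two-sided, 2 residual and 2.74 prior degrees of freedom) with Benjamini-Hochberg adjustment over 45037 probe sets; the script was tested on simulated data. A gene is its brightest probe set. The members and lists were chosen with earlier results of these data known. Values were given for Psmb5 to Psmb10, Psme1, the tissue-restricted and non-subunit members, the 6 non-overlapping members of smallest p in each direction and up to 4 genes per pathway list; others are named after their values were seen. Alternatives were array centring, quantile normalization done again, leaving out dim probe sets, trended robust variance, averaged probe sets, a replicate block, other membership and leaving out each array. Arrays have no depth; their number limits precision, and dim changes are compressed.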

Additional observations from a re-analysis of the deposited data

How the results depend on the processing

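No proteasome gene passed under any of the 10 alternatives run for that count. Over all probe sets, 2 passed as reported, 1 with dim probe sets left out, 10 with a trended robust variance, 0 with averaged probe sets (of 18193 genes), 0 with the replicate block and 0 without any 1 array. At an unadjusted p under 0.05 in limma, the counts for the last 3 were 683, 2054 and 577 to 3504. Of the proteasome genes, 2 had such a p with a trended robust variance (3.06% of all probe sets), 1 without dim probe sets (2.82%), 1 with the first knockout array left out (7.78%) and 3 with the second left out (6.55%). Averaging all probe sets moved the core median to -0.0125, the immunoproteasome median to -0.015 and the non-overlapping genes to 9, and turned Psmc3ip to 0.0325 and Psmd9 to -0.023; dim probe sets enter that mean. Centring turned Psmb6 to 0.005. Leaving out 1 array gave medians of 0.0175 to 0.0425 for the core, -0.02 to 0.03 for the cap and -0.155 to -0.05 for the immunoproteasome, and differences of -0.045 to 0.035 for Psmb6 and -0.135 to 0.035 for Psma8. It gave 25 to 37 non-overlapping proteasome genes. Without a wild-type array these were 56.8% of the 44, against 53.6% and 55.9% of all genes; without the first knockout array they were 84.1% against 69.8%, and with the second left out 79.5% against 68.5%. Samples with the same number in both genotypes share only that number in the labels; the correlation of their deviations was 0.241 over all probe sets and 0.371 over the proteasome genes. The block could not change any difference, because both genotypes have the same replicate numbers, so the unchanged differences are no check on them. No proteasome gene passed with the block, as no probe set did. It gives no count of non-overlapping genes. Depth does not apply; signal near the median probe set limits Psmb8 and Psmb9.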
